A study of Felis catus with 25 samples.

Results

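CYP1A1, AHRR, TIPARP, ALDH3A1 and NFE2L2 are genes linked to the aryl hydrocarbon receptor (AHR), and they are described here across 25 RNA libraries of cultured corneal fibroblasts of the domestic cat. They were taken by symbol, as 5 of the 13949 symbols in the count tables, and all 5 were found and passed the filter on low counts. They were chosen by a model that had their measured levels in these same libraries in view, so their levels and changes are given as a description, with no test. AHR itself was not analysed here.

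AHR is a ligand-activated transcription factor that waits in the cytosol with HSP90 chaperones. With dioxins, polycyclic hydrocarbons, many drugs or tryptophan metabolites bound to it, it moves to the nucleus, pairs with ARNT and switches on genes for xenobiotic metabolism. In human and mouse cells CYP1A1 is its most widely used readout, AHRR and TIPARP feed back on the receptor, and NFE2L2 encodes NRF2, the regulator of a neighbouring detoxification programme. ALDH3A1 is both an AHR target in several cell types and a major soluble protein of the mammalian cornea.

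The study dealt with corneal fibrosis, and each of its 5 groups held 5 libraries of polyadenylated RNA. All cells were fibroblasts plated on collagen, and all groups other than FB received transforming growth factor beta 1 (TGFb1) for 2 days, which turns such cells into myofibroblasts. UK cells then spent 3 days, to day 5, without TGFb1 and with 30 uM UK-5099, a blocker of mitochondrial pyruvate import. TrogGW cells spent the same 3 days without TGFb1 and with 7.5 uM troglitazone, an agonist of PPAR-gamma, plus 10 uM of the PPAR-gamma antagonist GW9662. Trog cells had 7.5 uM troglitazone alone over those days. TGFb cells were harvested at day 2 after TGFb1 at 1 ng/ml, and FB cells were quiescent and untreated at day 0. A day 5 group with TGFb1 removed and no drug, and a day 2 group without TGFb1, were not analysed here. Drug, TGFb1 removal and time therefore cannot be told apart in any drug group set against TGFb, nor TGFb1 and time in TGFb against FB. Per the labels the 5 libraries of each group are biological replicates, with separate donors or cultures not named, so errors measure the spread between these libraries.

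Depth was 14.8 to 25.2 M counts per library. Levels are counts per 1 M library counts (CPM), scaled by the TMM factors of edgeR, and changes are log2 fold changes with standard errors (SE) from 1 edgeR fit of all 25 libraries. UK replicate 5 stood apart before any of these genes is considered. Its total, 14.8 M, was the lowest, and across genes its correlation in log2 CPM with UK replicates 1 to 4 ran from 0.852 to 0.868, whereas no other pair of libraries of the same group fell under 0.988. Values of the 5 genes in UK are therefore given with and without it, and those of other genes only in part. The fit shares 1 estimate of each gene's spread over all groups, so this library also enters the SE of comparisons without UK. Of the stromal fibroblast markers, 11 of 12 were in the tables and all 11 passed the filter. Their summed level, collagens included, was 94125 to 138510 CPM in UK, 1852 to 4256 in TrogGW and 4480 to 6516 in Trog. It was 105090 to 126130 CPM in TGFb and 74422 to 90584 in FB. The corneal epithelial keratins KRT3 and KRT12 had no count in any library. Of 10 immune markers 4 passed the filter and PTPRC, AIF1, MS4A1 and TYROBP had no count, and the sum was 29.2 to 58.1 CPM in UK, 35.4 to 40.5 in TrogGW, 37.9 to 46.8 in Trog, 21.4 to 29.96 in TGFb and 13.8 to 17.1 in FB. Of 9 melanocyte and Schwann markers 1 passed and TYR and DCT had no count, with sums of 3.11 to 22.9 CPM in UK, 10.3 to 12.7 in TrogGW, 14.5 to 19.2 in Trog, 5.17 to 6.42 in TGFb and 5.49 to 8.51 in FB. Corneal endothelium markers, 9 of 10 past the filter, summed to 1414 to 3245 CPM in UK, 1617 to 1726 in TrogGW, 1774 to 1930.2 in Trog, 3577 to 4045 in TGFb and 2711 to 2984 in FB. Vascular markers, 5 of 8 past it, summed to 109 to 133 CPM in UK, 72.2 to 90.4 in TrogGW, 112 to 131 in Trog, 66.04 to 75.03 in TGFb and 128 to 139.6 in FB. Whether these differences bear on the genes described here was not tested.

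CYP1A1, a monooxygenase that oxidises polycyclic hydrocarbons, differed most between the groups. Its level in UK replicates 1 to 5 was 119, 189.8, 146, 112 and 175 CPM. In TrogGW it was 8.31, 6.59, 5.54, 7.15 and 4.86 CPM, and in Trog 4.25, 6.15, 11.0, 6.08 and 4.93 CPM. Every UK library thus lay above every library of both troglitazone groups, and the TrogGW and Trog ranges overlapped. TGFb libraries held 0.728, 0.487, 0.395, 0.448 and 0.373 CPM, which rests on 6 to 12 counts per library and 39 in all. FB libraries held 6.03, 8.51, 9.09, 7.35 and 7.25 CPM. TGFb was therefore below all other groups without overlap, while FB overlapped both troglitazone groups. In a culture, fewer cells that make a transcript and less transcript per cell cannot be told apart.

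CYP1A1 averaged 148 ± 33.8 CPM in UK and 0.486 ± 0.142 CPM in TGFb (SD, n = 5 each), a log2 fold change of 8.24 ± 0.301 (SE) or 301-fold. Without UK replicate 5 the UK mean was 142 ± 35.2 CPM and the change 8.17 ± 0.264, or 288-fold, so the library that stood apart in the whole transcriptome did not stand apart here. Both troglitazone groups averaged close to the same level, 6.49 ± 1.35 CPM in TrogGW and 6.48 ± 2.65 CPM in Trog, each 3.72 ± 0.286 above TGFb on the log2 scale, or 13.2-fold. Adding GW9662 to troglitazone gave a change of 0.0016 ± 0.211 against troglitazone alone. That value depended on single libraries, at 0.27 without Trog replicate 3, the highest Trog library, and -0.12 without Trog replicate 1. UK lay 4.51 ± 0.234 above Trog (22.9-fold), or 4.45 ± 0.174 without UK replicate 5, with UK-5099 and troglitazone used at different doses. After 2 days of TGFb1 the level was 15.5-fold lower than in FB, at a log2 fold change of -3.96 ± 0.287, with 7.65 ± 1.19 CPM in FB. By group mean the order was UK, FB, TrogGW, Trog and TGFb, in which FB, TrogGW and Trog could not be separated by their ranges.

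**Figure D1:**
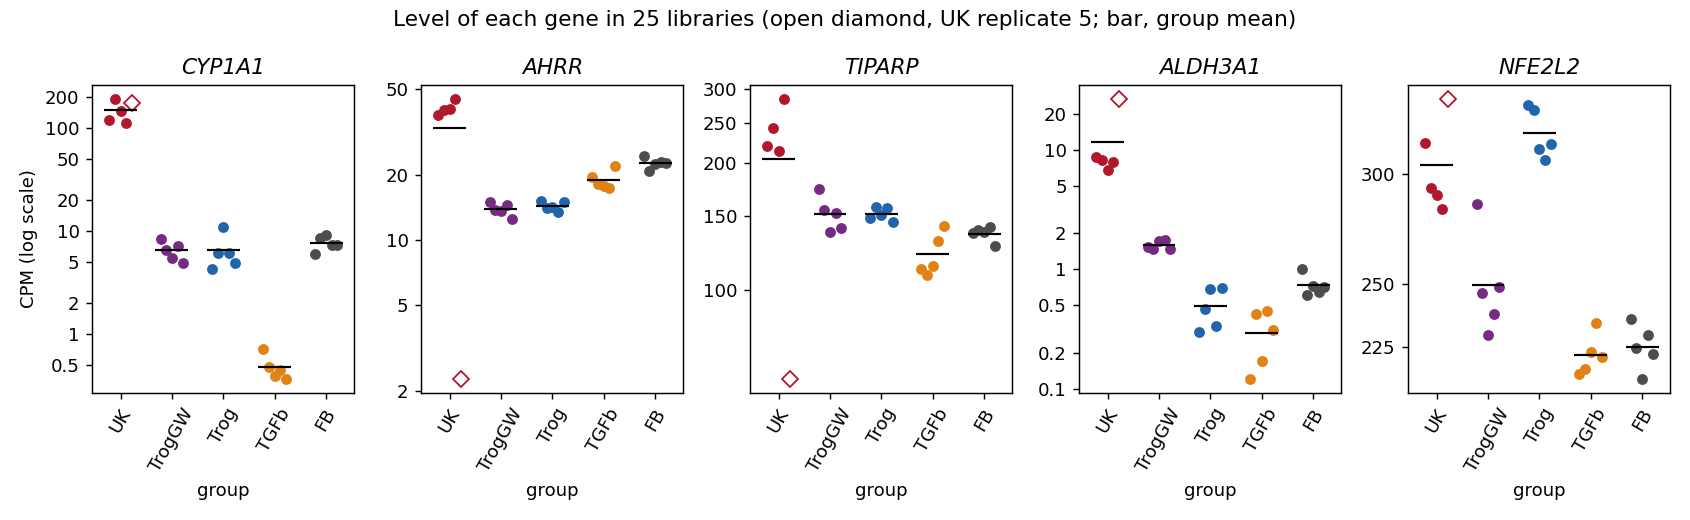
Level of each gene in CPM (log scale, vertical) in the 5 groups (horizontal), with 1 point per library, a bar at the group mean and an open diamond for UK replicate 5. CYP1A1 in UK lies at 112 to 189.8 CPM, above the libraries of every other group, and the open diamond is at 2.29 CPM for AHRR and 61.6 CPM for TIPARP, far below the other UK points.

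AHRR encodes the AHR repressor, which competes with the receptor for ARNT and is itself an AHR target. UK replicates 1 to 4 held 37.8, 39.9, 40.2 and 44.8 CPM, and UK replicate 5 held 2.29 CPM, or 25 counts. The 4 agreeing UK libraries were above all libraries of the other groups, and the fifth was below all of them. In TrogGW the level was 14.9, 13.8, 13.6, 14.5 and 12.5 CPM and in Trog 15.1, 14.1, 14.1, 13.4 and 15.02 CPM. In TGFb it was 19.6, 18.1, 17.8, 17.4 and 22.02 CPM, against 24.3, 20.8, 22.3, 22.8 and 22.8 CPM in FB. Both troglitazone groups lay wholly below TGFb and overlapped each other, and TGFb overlapped FB.

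The mean of AHRR was 33.0 ± 17.4 CPM over 5 UK libraries and 40.7 ± 2.93 CPM over 4, against 19.0 ± 1.89 CPM in TGFb. The log2 fold change of UK over TGFb was 0.80 ± 0.352 with all libraries and 1.10 ± 0.0705 without UK replicate 5. UK over Trog, where Trog averaged 14.3 ± 0.698 CPM, came to 1.21 ± 0.353 with all libraries and 1.51 ± 0.0698 without it. AHRR was lower than in TGFb by a log2 fold change of -0.45 ± 0.353 in TrogGW and -0.40 ± 0.353 in Trog, but with libraries scaled by their totals alone these became 0.40 and 0.28, of opposite sign. TGFb over FB was -0.25 ± 0.351, with 22.6 ± 1.26 CPM in FB, and TrogGW over Trog was -0.05 ± 0.351, which turned to 0.12 with totals alone. All groups share 1 estimate of the spread, so the SE of AHRR is wide even where UK takes no part. Without UK replicate 5 the SE of TGFb over FB was 0.0694.

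TIPARP, an ADP-ribosyltransferase that modifies and restrains AHR in mouse and human cells, showed the same split within UK on a smaller scale. It held 220.4, 243, 214 and 285 CPM in UK replicates 1 to 4 and 61.6 CPM in UK replicate 5. TrogGW libraries held 174, 155, 137, 153 and 140.5 CPM and Trog libraries 148, 157, 151, 156 and 145 CPM. The 4 similar UK libraries exceeded every library of the other groups, and the ranges of TrogGW and Trog overlapped. TGFb had 112, 109, 114, 130.5 and 142 CPM, against 136, 139, 137, 141 and 127 CPM in FB, again with overlap. All Trog libraries were above all TGFb and FB libraries, while TrogGW overlapped both.

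TIPARP averaged 205 ± 84.7 CPM in UK (241 ± 31.9 CPM without UK replicate 5) and 121 ± 14.1 CPM in TGFb. UK over TGFb was 0.75 ± 0.219 on the log2 scale, and 0.99 ± 0.0776 without UK replicate 5. UK over Trog, which averaged 151 ± 5.30 CPM, was 0.44 ± 0.218 and, without that library, 0.67 ± 0.0767. TrogGW, at 152 ± 14.3 CPM, and Trog were each 0.32 ± 0.218 above TGFb. As for AHRR, UK replicate 5 widened these SE, which were 0.0737 in TrogGW and 0.0738 in Trog without it. GW9662 beside troglitazone moved TIPARP by 0.0040 ± 0.217, about as little as it moved CYP1A1 with all libraries. TGFb over FB was -0.17 ± 0.218, with 136 ± 5.38 CPM in FB.

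ALDH3A1 oxidises the aldehydes that light and lipid peroxidation produce, and in the cornea of many mammals it is abundant enough to be called a crystallin. UK libraries held 8.81, 8.24, 6.79, 7.94 and 26.9 CPM, the last of them in UK replicate 5, where ALDH3A1 was high while AHRR and TIPARP were low. TrogGW libraries held 1.53, 1.48, 1.71, 1.77 and 1.48 CPM, and Trog libraries 0.301, 0.462, 0.690, 0.336 and 0.691 CPM. All UK libraries were above all TrogGW libraries, and all TrogGW libraries were above all Trog libraries. In TGFb it stood at 0.121, 0.426, 0.169, 0.448 and 0.311 CPM, from 2 to 7 counts a library, against 1.02, 0.604, 0.732, 0.641 and 0.714 CPM in FB. TGFb was wholly below FB, and Trog overlapped both.

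ALDH3A1 averaged 11.7 ± 8.51 CPM in UK and 0.295 ± 0.147 CPM in TGFb, a log2 fold change of 5.29 ± 0.409 or 39.2-fold. Without UK replicate 5 the UK mean was 7.94 ± 0.851 CPM and the change 4.76 ± 0.226, or 27.1-fold. TrogGW, at 1.60 ± 0.137 CPM, was 2.44 ± 0.451 above TGFb (5.44-fold), and Trog, at 0.496 ± 0.188 CPM, was 0.76 ± 0.526 above it. GW9662 with troglitazone thus gave a level 3.22-fold that of troglitazone alone (1.69 ± 0.376, with an SE of 0.213 without UK replicate 5). In that contrast CYP1A1 and TIPARP stayed within their SE with all libraries, though CYP1A1 was at 0.27 without Trog replicate 3. UK over Trog was 4.53 ± 0.358, and 4.00 ± 0.188 without UK replicate 5. TGFb over FB was -1.33 ± 0.51, with 0.741 ± 0.162 CPM in FB. UK replicate 5 widened these SE as well. Without it they were 0.319 in TGFb over FB, 0.267 in TrogGW over TGFb and 0.332 in Trog over TGFb. Corneal epithelium is a tissue rich in ALDH3A1. With 5 of its 10 markers in the tables, 2 past the filter and KRT3 and KRT12 at 0, they summed to 0.637 to 3.75 CPM in UK, 2.91 to 5.37 in TrogGW, 1.84 to 3.04 in Trog, 3.90 to 5.88 in TGFb and 7.91 to 10.6 in FB. In this sum UK lay below TGFb and FB and overlapped TrogGW and Trog, and the part of such cells in the ALDH3A1 levels was not tested.

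NFE2L2 encodes NRF2, whose amount is set mainly by KEAP1-dependent breakdown of the protein, so its mRNA is only part of its activity. It held 316, 293, 289.8, 283 and 339.6 CPM in UK, 285, 246, 229, 238 and 249 CPM in TrogGW and 336, 334, 313, 307 and 315 CPM in Trog. TGFb had 215, 217, 223, 234 and 221 CPM, against 236, 225, 214, 229 and 223 CPM in FB. All UK and Trog libraries were above all TGFb and FB libraries, whereas TrogGW overlapped TGFb and FB at its lower end and UK at its upper end.

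With a mean of 321 ± 13.2 CPM in Trog and 222 ± 7.48 CPM in TGFb, NFE2L2 changed by 0.53 ± 0.0668 on the log2 scale, or 1.45-fold. UK averaged 304 ± 23.3 CPM (295 ± 14.2 CPM without UK replicate 5) and was 0.45 ± 0.0668 above TGFb, or 0.41 ± 0.0552 without that library. TrogGW averaged 249 ± 21.4 CPM and was 0.17 ± 0.0666 above TGFb. TrogGW over Trog was -0.36 ± 0.0667, so that GW9662 went with a lower NFE2L2 level and a higher ALDH3A1 level. UK over Trog was -0.08 ± 0.0666, or -0.12 ± 0.0551 without UK replicate 5, and TGFb over FB was -0.02 ± 0.0667, with 225 ± 8.21 CPM in FB.

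**Figure D2:**
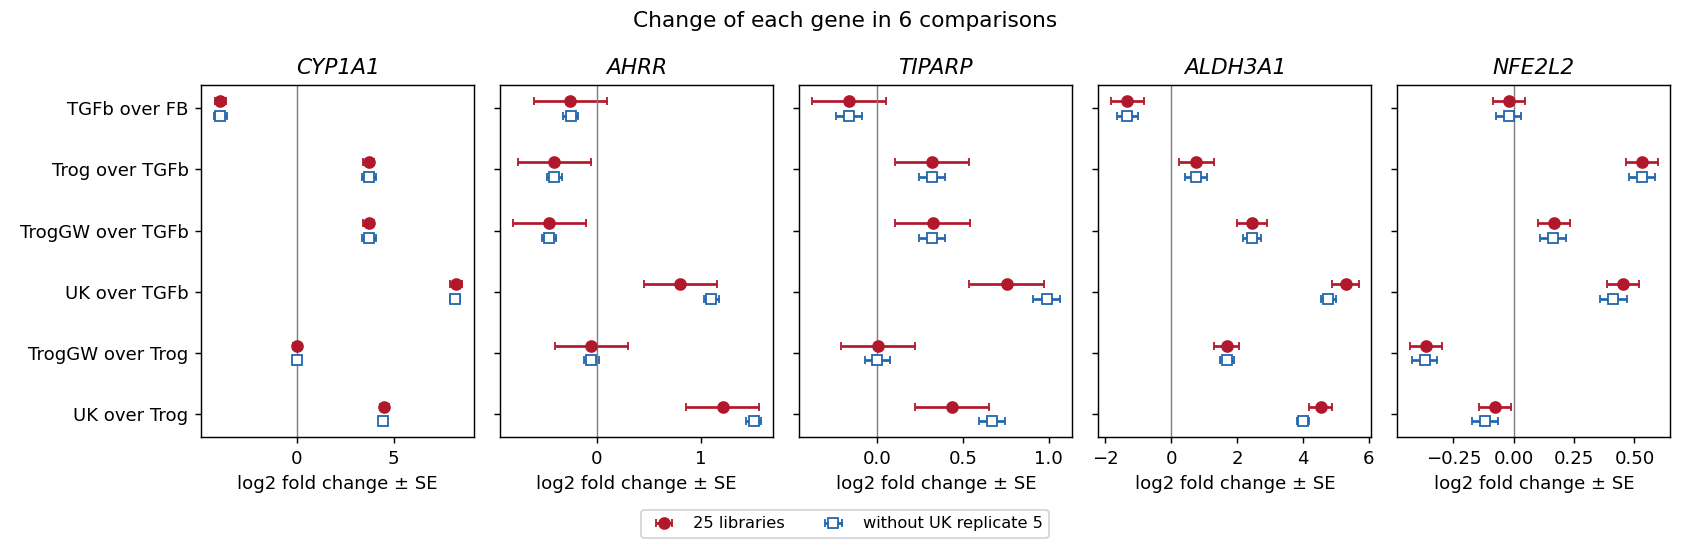
Log2 fold change (horizontal) of each gene in 6 comparisons (vertical), with bars for ± SE. Filled circles use all 25 libraries and open squares leave out UK replicate 5. CYP1A1 runs from -3.96 in TGFb over FB to 8.24 in UK over TGFb, and the bars of AHRR and TIPARP are several times shorter without UK replicate 5.

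The 5 genes did not share 1 order of groups. CYP1A1 and ALDH3A1 were lowest in TGFb and highest in UK, AHRR was lowest in the troglitazone groups, and NFE2L2 had its highest mean in Trog. TIPARP was lowest in TGFb and, in 4 of 5 libraries, highest in UK. Comparisons with TGFb share its 5 libraries, and those with Trog share the Trog libraries, so their values are set side by side and not taken as independent. No member is a neighbour of another in the RefSeq gene table of the cat. A noncoding RNA gene lies within the span of AHRR there, and since the strand setting of the counts was not given in the sources used here, reads of the pair cannot be told apart.

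UK replicate 5 did not scale these genes up or down together. Set against the mean of UK replicates 1 to 4, it had 1.23 times the CYP1A1, 3.39 times the ALDH3A1 and 1.15 times the NFE2L2. AHRR was 17.8-fold lower and TIPARP 3.91-fold lower. CYP1B1, an AHR-driven monooxygenase close to CYP1A1, stood at 62.5 CPM, 7.06-fold below the 395 to 497 CPM of the other UK libraries. ARNT, the partner of AHR, was 7.91-fold lower at 4.67 CPM, and NEDD9, a docking protein of cell adhesion, 20.4-fold lower at 3.93 CPM. BAX, which permeabilises mitochondria in apoptosis, was 4.88 times the mean and HSP90AA1 2.06 times. Across genes, this library correlated at 0.863 with the mean of the other UK libraries, 0.747 with TrogGW, 0.796 with Trog, 0.836 with TGFb and 0.833 with FB.

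**Figure D3:**
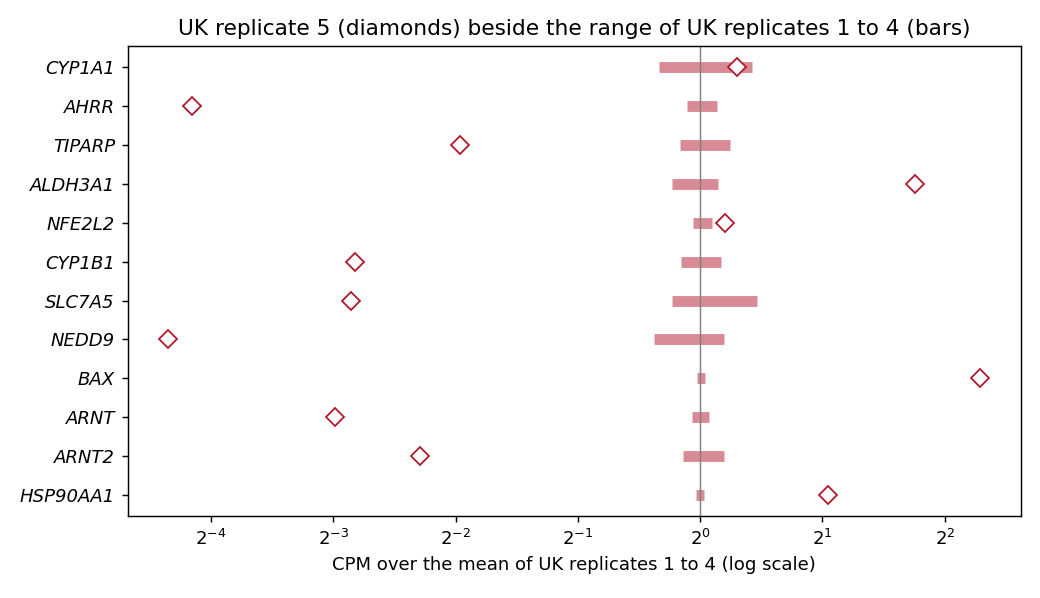
Level in UK replicate 5 (diamonds) over the mean of UK replicates 1 to 4 on a log scale (horizontal), with bars for the range of those 4 libraries, for the members and for genes of the AHR pathway (vertical). CYP1A1 lies inside its bar at 1.23, AHRR, TIPARP, CYP1B1 and ARNT lie to the left of theirs, and ALDH3A1 (3.39) and BAX (4.88) to the right.

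Other genes of the pathway were read against all 10699 genes tested. They are called higher or lower at an adjusted p under 0.05 (quasi-likelihood test of edgeR, Benjamini-Hochberg adjustment). Of the tested genes, 28% were called higher and 22.5% lower in UK than in TGFb. In TrogGW against TGFb the shares were 38.1% higher and 31.3% lower, and in Trog against TGFb 32.9% higher and 29.7% lower. UK against Trog gave 32.9% higher and 28.2% lower, and TrogGW against Trog 22.8% higher and 20.4% lower. TGFb against FB gave 18% higher and 20.2% lower. The share of all tested genes whose libraries do not overlap between groups is not given here. A lack of overlap in a named gene is therefore a description alone. Leaving out UK replicate 5 raised the number of called genes in every comparison, and list counts without it are read against those totals. They were 7657 in UK over TGFb (5408 with all libraries), 9279 in TrogGW over TGFb (7421) and 8742 in Trog over TGFb (6699). The others were 8111 in UK over Trog (6534), 7735 in TrogGW over Trog (4620) and 7124 in TGFb over FB (4089). Without that library 3911 genes were called higher and 3824 lower in TrogGW over Trog, and 3425 higher and 3699 lower in TGFb over FB. The shares also depend on the scaling. With library totals alone, 74.2% of the calls in UK over TGFb were higher, against 55.4% with TMM factors. The same pair was 84.9% and 54.9% in TrogGW over TGFb, 83.2% and 52.5% in Trog over TGFb, 25.1% and 53.8% in UK over Trog, 69.9% and 52.8% in TrogGW over Trog, and 13.9% and 47.2% in TGFb over FB. Of the 10699 genes, totals alone called 4549 higher and 1583 lower in UK over TGFb. The counts were 7502 and 1332 in TrogGW over TGFb and 6831 and 1379 in Trog over TGFb. They were 1790 and 5339 in UK over Trog, 3408 and 1466 in TrogGW over Trog and 810 and 5035 in TGFb over FB. List counts with totals alone are read against these. Totals alone shifted the median of all tested genes to a log2 fold change of 0.32 in UK over TGFb, 0.94 in TrogGW over TGFb, 0.73 in Trog over TGFb, -0.41 in UK over Trog, 0.18 in TrogGW over Trog and -0.39 in TGFb over FB. With TMM factors those medians were 0.09, 0.09, 0.04, 0.04, 0.01 and -0.02 in the same order.

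Of the receptor complex, 3 of 6 listed genes were in the tables and tested. ARNT was not called in any of the 6 comparisons, at a log2 fold change of -0.19 ± 0.278 in UK over TGFb, where UK replicate 5 was the low library. Without that library ARNT was called in Trog over TGFb (-0.15), TrogGW over Trog (0.14) and UK over Trog (0.24). ARNT2, a second partner of AHR, fell in UK to 46.9 ± 20.5 CPM, against 83.1 ± 2.76 CPM in TGFb (-0.82 ± 0.239, edgeR adjusted p = 0.00625, all 5 UK libraries below all TGFb libraries). That change was -0.57 without UK replicate 5 and was not called in an edgeR fit of those groups alone (adjusted p = 0.113). It was also called lower in TrogGW (-0.84 ± 0.238) and Trog (-0.58 ± 0.237) than in TGFb, signs that turned with totals alone, to 0.01 and 0.10. HSP90AA1, the inducible HSP90, was called only in UK over Trog (0.39 ± 0.146), a call that ended without UK replicate 5 and in the fit of those groups alone (edgeR adjusted p = 0.171), and a sign that turned to -0.11 with totals alone. With all libraries the calls, higher and lower, were 0 and 1 in UK over TGFb, 0 and 1 in TrogGW over TGFb, 0 and 1 in Trog over TGFb, 1 and 0 in UK over Trog, and 0 and 0 in TrogGW over Trog and in TGFb over FB. Leaving out UK replicate 5 brought them to 0 and 2 in UK over TGFb, 0 and 3 in Trog over TGFb and 2 and 1 in TrogGW over Trog. The median of the 3 with all libraries was -0.19 in UK over TGFb, -0.01 in TrogGW over TGFb, -0.26 in Trog over TGFb, -0.03 in UK over Trog, 0.14 in TrogGW over Trog and 0.05 in TGFb over FB. Totals alone turned it to 0.08 in UK over TGFb, 0.84 in TrogGW over TGFb, 0.43 in Trog over TGFb and -0.33 in TGFb over FB. With totals alone the calls, higher and lower, were 1 and 0 in UK over TGFb, 2 and 0 in TrogGW over TGFb, 1 and 0 in Trog over TGFb, 0 and 1 in UK over Trog, 1 and 0 in TrogGW over Trog and 0 and 1 in TGFb over FB.

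Other AHR targets did not move as a block with CYP1A1. Of 21 listed, 15 were in the tables and 11 were tested. In UK against TGFb 3 were called higher and 6 lower, or 2 and 7 without UK replicate 5. A fit of those groups alone tested 8 genes of the list and called 2 higher and 2 lower, with a median log2 fold change of -0.18. TrogGW against TGFb gave 6 and 4, Trog against TGFb 4 and 4, UK against Trog 4 and 4, TrogGW against Trog 5 and 3, and TGFb against FB 2 and 2 (3 and 5 without UK replicate 5). With all libraries, the counts in Trog against TGFb and UK against Trog were near the shares of all tested genes. Those shares were 32.9% and 29.7% in Trog against TGFb, and 32.9% and 28.2% in UK against Trog. The same held for TGFb against FB (18% and 20.2%) and for the higher calls in UK against TGFb (28%). The median log2 fold change of the 11 was -1.34 in UK over TGFb, or -1.56 without UK replicate 5. With the genes at 0 counts set to their bounds it became -0.60, which is the bound of IDO1 itself. That value therefore rests on the chosen floor of 3 counts and is not a measured change. The fitted median was 0.69 in TrogGW over TGFb, 0.09 in Trog over TGFb, -0.24 in UK over Trog, 0.43 in TrogGW over Trog and -0.07 in TGFb over FB. With totals alone the calls, higher and lower, were 4 and 5 in UK over TGFb, 7 and 3 in TrogGW over TGFb, 6 and 1 in Trog over TGFb, 3 and 5 in UK over Trog, 5 and 3 in TrogGW over Trog and 1 and 5 in TGFb over FB.

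CYP1B1 was the target closest to CYP1A1 in what it does. It had 395, 454, 420, 497 and 62.5 CPM in UK, 37.0, 40.9, 42.3, 42.6 and 32.02 CPM in TrogGW and 16.8, 14.6, 25.8, 16.3 and 13.9 CPM in Trog, with its highest Trog value in replicate 3, where CYP1A1 was highest too. TGFb libraries held 29.9, 32.6, 34.6, 30.5 and 36.3 CPM, against 66.4, 71.0, 72.1, 84.4 and 79.9 CPM in FB. It rose in UK over TGFb by 3.48 ± 0.33 (edgeR adjusted p = 5.32e-09, every UK library above every TGFb library) and by 3.75 without UK replicate 5. Both CYP1B1 and CYP1A1 were lower in TGFb than in FB, CYP1B1 by -1.19 ± 0.305 with no overlap (edgeR adjusted p = 0.00316). CYP1B1 fell in Trog to 17.5 ± 4.78 CPM, against 32.8 ± 2.68 CPM in TGFb (-0.91 ± 0.306, edgeR adjusted p = 0.0130, all Trog libraries lower), where CYP1A1 averaged 13.2-fold more. With totals alone the CYP1B1 change was smaller, at -0.22. It was also higher in TrogGW than in Trog by 1.15 ± 0.306, where CYP1A1 differed by 0.0016, or 0.27 without Trog replicate 3.

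The remaining targets went several ways in UK. SELENBP1, a selenium-binding protein, rose over TGFb in UK (2.33 ± 0.376), TrogGW (2.02 ± 0.373) and Trog (1.12 ± 0.409), all from levels under 2 CPM. SLC7A5, a transporter of large neutral amino acids, fell in UK to 17.5 ± 9.41 CPM, against 104 ± 3.94 CPM in TGFb (-2.55 ± 0.288, edgeR adjusted p = 8.97e-08, no overlap). It rose in both TrogGW (0.69 ± 0.271) and Trog (0.85 ± 0.271) over TGFb. NEDD9 fell in UK (-1.86 ± 0.385), TrogGW (-3.23 ± 0.407) and Trog (-3.11 ± 0.404) against TGFb, and was higher in TGFb than in FB (0.98 ± 0.376). HES1, a Notch-responsive repressor, fell against TGFb in UK (-1.34 ± 0.393, -2.06 without UK replicate 5, and not called in a fit of those groups alone), TrogGW (-2.29 ± 0.405) and Trog (-1.10 ± 0.389).

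EREG, a growth factor for EGF receptors, had no count in any UK library, at least 7.97-fold lower than in TGFb and at least 36.3-fold lower than in Trog, with the floor at 3 counts over the group. It was higher over TGFb in TrogGW (4.98 ± 0.322) and Trog (2.16 ± 0.368). IDO1, which opens the kynurenine branch of tryptophan breakdown, also had 0 counts in UK, at least 8.19-fold lower than the 33 counts of Trog. Against the 4 counts of TGFb that bound was only 1.52-fold, although IDO1 was called lower there. IDO1 was at 1.10 ± 0.131 CPM in TrogGW against 0.0547 ± 0.0755 CPM in TGFb (4.30 ± 0.494). SERPINB2, a plasminogen activator inhibitor, reached 3.27 ± 0.873 CPM in TrogGW against 0.329 ± 0.133 CPM in TGFb (3.26 ± 0.343). It was called lower than in TGFb in UK, at 0.0573 ± 0.0749 CPM (-2.76 ± 0.688, and -3.47 without UK replicate 5), and in Trog, at 0.0904 ± 0.0883 CPM (-1.83 ± 0.556), both with overlap and at levels of few counts. BAX was called higher in UK over TGFb (0.82 ± 0.314), a call that rested on UK replicate 5, with -0.01 ± 0.0542 without it, and it fell in TrogGW (-1.54 ± 0.32). ABCG2, a drug efflux pump, was called lower in TrogGW over TGFb (-0.59 ± 0.159), a sign that turned to 0.26 with totals alone, and lower in TrogGW over Trog (-0.68 ± 0.158). POLK, a translesion DNA polymerase, rose in TrogGW over TGFb (0.70 ± 0.252) and fell in UK over Trog (-0.77 ± 0.253), a call lost in the fit of those groups alone (edgeR adjusted p = 0.133).

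**Figure D4:**
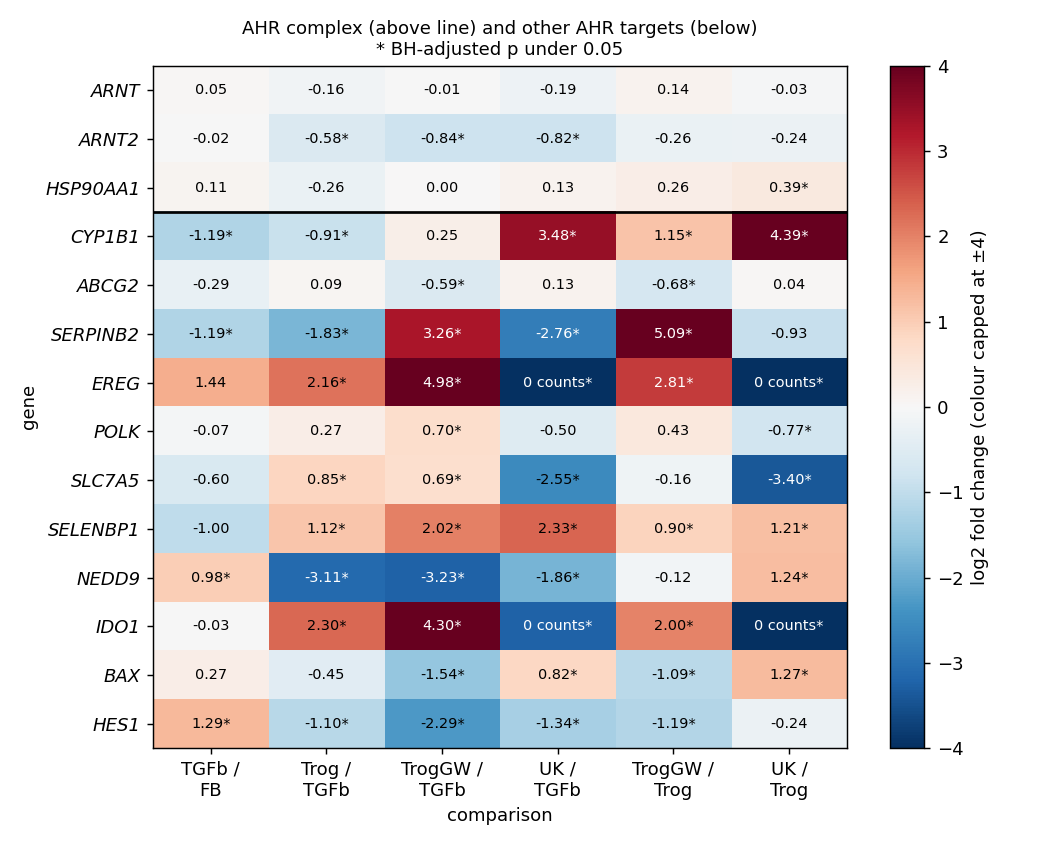
Log2 fold change (colour, capped at ±4, and number) of 3 genes of the AHR complex, above the line, and 11 other AHR targets, below it (vertical), in 6 comparisons (horizontal), with an asterisk for an adjusted p under 0.05 and "0 counts" where a group had none. CYP1B1 is at 3.48 and SLC7A5 at -2.55 in UK over TGFb, so the list does not share 1 direction.

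Enzymes of tryptophan breakdown make natural AHR ligands. Of 15 listed genes all 15 were in the tables, and 6 were tested. KYAT1, which turns kynurenine into kynurenic acid, rose to 13.05 ± 3.79 CPM in UK (11.4 ± 0.651 CPM without UK replicate 5), 12.9 ± 0.927 CPM in TrogGW and 8.63 ± 0.515 CPM in Trog, against 3.02 ± 0.418 CPM in TGFb. Its log2 fold changes were 2.10 ± 0.145, 2.09 ± 0.144 and 1.51 ± 0.144, in each case with no overlap with TGFb, and it fell in TGFb over FB (-0.59 ± 0.147). AFMID, which hydrolyses formylkynurenine, was lower than in TGFb in TrogGW (-1.05 ± 0.131) and Trog (-1.86 ± 0.137) and higher in UK over Trog (1.76 ± 0.137). Called higher and lower were 2 and 2 of the 6 in UK over TGFb, 3 and 1 in TrogGW over TGFb, 3 and 2 in Trog over TGFb, 3 and 2 in UK over Trog, 4 and 0 in TrogGW over Trog and 0 and 2 in TGFb over FB (0 and 4 without UK replicate 5). The medians were -0.06, 0.31, 0.55, 0.30, 0.47 and -0.22 in that order, and with totals alone the UK over TGFb median turned to 0.15 and the UK over Trog median to -0.18. With totals alone the calls in that order were 2 and 1, 4 and 0, 4 and 1, 1 and 3, 5 and 0 and 0 and 4. Without UK replicate 5 the medians were -0.24 in UK over TGFb and 0.09 in UK over Trog. The 2 and 2 calls in UK over TGFb with all libraries were near the shares of all tested genes, 28% and 22.5%.

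NFE2L2 is one regulator among several of the NRF2 programme. Of 10 further regulators 9 were tested, and 4 were called higher and 3 lower in UK over TGFb, 6 and 2 in TrogGW over TGFb, 7 and 2 in Trog over TGFb, 1 and 6 in UK over Trog, 2 and 2 in TrogGW over Trog and 3 and 0 in TGFb over FB. Without UK replicate 5 the counts were 3 and 4 in TrogGW over Trog and 4 and 1 in TGFb over FB. The medians were 0.28, 0.98, 1.21, -0.80, -0.23 and 0.09 in that order, and the last turned to -0.29 with totals alone. With totals alone the calls in that order were 5 and 1, 7 and 1, 7 and 0, 1 and 8, 2 and 1 and 1 and 2. The UK over Trog median was -0.64 without UK replicate 5. The 2 and 2 calls in TrogGW over Trog with all libraries were near the shares of all tested genes, 22.8% and 20.4%. SQSTM1, the p62 adaptor that draws KEAP1 away from NRF2, rose to 1001 ± 499 CPM in UK (782 ± 114 CPM without UK replicate 5), 5791 ± 1024 CPM in TrogGW and 1743 ± 88.2 CPM in Trog, against 247 ± 16.9 CPM in TGFb. KEAP1 rose in UK (0.69 ± 0.0975) and TrogGW (0.98 ± 0.0978) over TGFb. NFE2L1, a related factor of proteasome genes, rose in TrogGW (0.91 ± 0.0914) and Trog (1.46 ± 0.0925) over TGFb, and, like NFE2L2, was lower in TrogGW than in Trog (-0.56 ± 0.0909).

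Of 24 listed NRF2 targets 17 were tested. In UK over TGFb 11 were called higher and 2 lower, with a median of 0.61 (11 and 5, with a median of 0.40, without UK replicate 5). TrogGW over TGFb gave 12 and 2 (1.37) and Trog over TGFb 10 and 3 (0.96). UK over Trog gave 5 and 9 (-0.35), TrogGW over Trog 4 and 2 (0.20; 8 and 4 called without UK replicate 5), and TGFb over FB 3 and 4 (-0.08; 4 and 7 called without UK replicate 5). With totals alone the calls, higher and lower, were 12 and 2 in UK over TGFb, 16 and 0 in TrogGW over TGFb, 15 and 0 in Trog over TGFb, 2 and 10 in UK over Trog, 6 and 0 in TrogGW over Trog and 1 and 6 in TGFb over FB. The 3 and 4 calls in TGFb over FB with all libraries were near the shares of all tested genes, 18% and 20.2%. GCLC, the rate-limiting enzyme of glutathione synthesis, stood at 319.8 ± 36.8 CPM in TrogGW and 91.7 ± 4.03 CPM in Trog, against 18.6 ± 0.871 CPM in TGFb, and was 1.80 ± 0.0991 higher in TrogGW than in Trog, where NFE2L2 was 0.36 lower. GCLM, the other subunit of that enzyme, did not pass the test in TrogGW over Trog (0.02 ± 0.0697). FTH1, the ferritin heavy chain, rose over TGFb in TrogGW (2.85 ± 0.117) and Trog (2.32 ± 0.114), as did GSR, which regenerates glutathione (1.73 ± 0.0901 in TrogGW and 1.90 ± 0.0905 in Trog). EPHX1, a microsomal epoxide hydrolase, was the target that rose most in UK, to 113 ± 21.3 CPM, against 7.80 ± 0.907 CPM in TGFb (3.86 ± 0.127, edgeR adjusted p = 7.87e-17, no overlap).

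**Figure D5:**
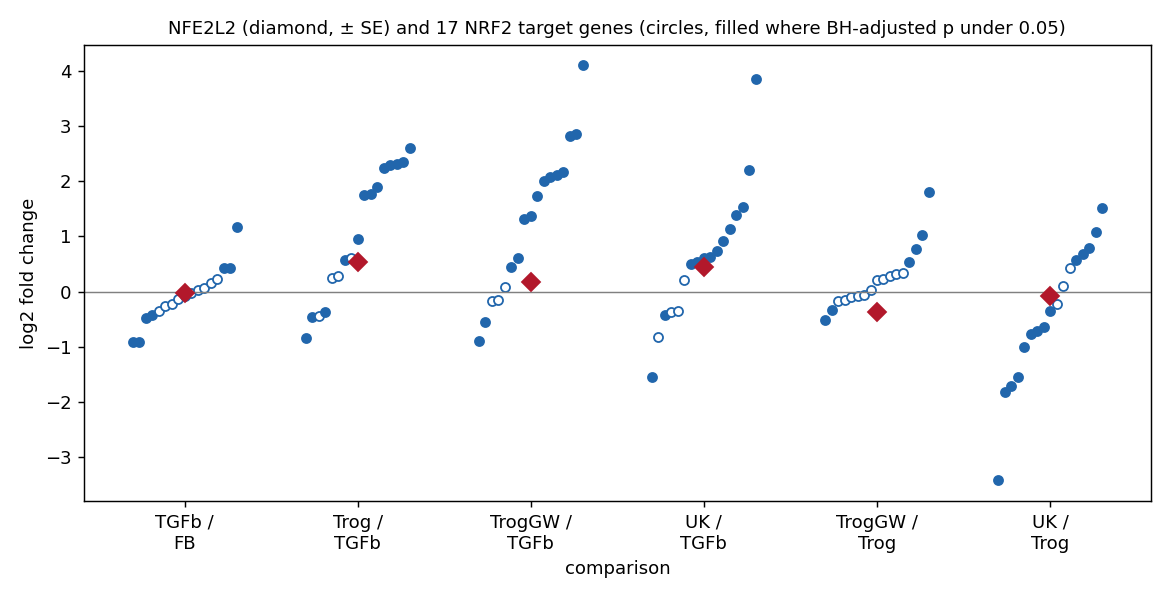
Log2 fold change (vertical) of NFE2L2 (red diamond, ± SE) and of 17 NRF2 target genes (circles, filled at an adjusted p under 0.05) in 6 comparisons (horizontal). NFE2L2 stays between -0.36 and 0.53, while its targets reach 4.10 in TrogGW over TGFb and 3.86 in UK over TGFb.

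TIPARP and ALDH3A1 belong to enzyme families whose other members were read in the same way. Of 13 further PARP family genes 11 were tested. They were called higher and lower as 2 and 3 in UK over TGFb, 6 and 2 in TrogGW over TGFb, 7 and 1 in Trog over TGFb, 1 and 7 in UK over Trog, 1 and 4 in TrogGW over Trog (2 and 8 without UK replicate 5) and 2 and 5 in TGFb over FB. The medians were -0.18, 0.25, 0.72, -0.44, -0.39 and -0.18, the first of which turned to 0.06 with totals alone. Under that scaling the calls were 3 and 2, 10 and 1, 10 and 1, 0 and 9, 1 and 1 and 0 and 7. The UK over Trog median was -0.25 without UK replicate 5. With all libraries, the 2 and 3 calls in UK over TGFb were near the shares of all tested genes, 28% and 22.5%. PARP4, the vault-associated member, fell against TGFb in UK (-1.30 ± 0.217), TrogGW (-2.56 ± 0.226) and Trog (-1.93 ± 0.221), where TIPARP had positive changes. PARP9, a member active in interferon signalling, was called higher in UK over TGFb (0.87 ± 0.268, and 1.13 without UK replicate 5). UK replicate 5 held 4.21 CPM of it and the other UK libraries 26.2 to 29.6 CPM, against 12.4 to 13.7 CPM in TGFb, and the call was lost in the fit of those groups alone (edgeR adjusted p = 0.130).

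Of 17 further aldehyde dehydrogenases 13 were tested, with 6 called higher and 3 lower in UK over TGFb, 2 and 9 in TrogGW over TGFb, 1 and 7 in Trog over TGFb, 9 and 1 in UK over Trog, 1 and 6 in TrogGW over Trog and 3 and 2 in TGFb over FB. Without UK replicate 5, Trog over TGFb gave 2 and 10, TrogGW over Trog 3 and 9 and TGFb over FB 5 and 3. Their medians with all libraries were 0.0013, -0.96, -0.58, 1.19, -0.47 and 0.10, and with totals alone Trog over TGFb turned to 0.10 and TGFb over FB to -0.28. The calls with totals alone were 6 and 2 in UK over TGFb, 5 and 6 in TrogGW over TGFb, 5 and 4 in Trog over TGFb, 7 and 3 in UK over Trog, 3 and 6 in TrogGW over Trog and 0 and 5 in TGFb over FB. Without UK replicate 5 the medians were 0.19 in UK over TGFb and 0.97 in UK over Trog. With all libraries, the 3 and 2 calls in TGFb over FB were near the shares of all tested genes, 18% and 20.2%. ALDH2, the mitochondrial acetaldehyde enzyme, rose in UK to 25.9 ± 2.16 CPM, against 13.7 ± 0.590 CPM in TGFb (0.92 ± 0.0911), and fell to 4.58 ± 0.571 CPM in TrogGW. ALDH7A1, an enzyme of lysine breakdown, rose in UK over TGFb (0.86 ± 0.115). ALDH18A1, which starts proline synthesis, fell in UK (-0.95 ± 0.113), TrogGW (-1.64 ± 0.115) and Trog (-1.06 ± 0.113) against TGFb. In TrogGW over Trog, where ALDH3A1 was 3.22-fold higher, ALDH2 fell by 1.00 ± 0.0939 and ALDH7A1 by 0.78 ± 0.115.

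AHR, AHRR and ARNT are factors of the bHLH-PAS family, of which 8 of 14 further listed genes were tested. Higher and lower calls were 2 and 2 in UK over TGFb, 5 and 2 in TrogGW over TGFb, 3 and 2 in Trog over TGFb, 3 and 3 in UK over Trog, 2 and 3 in TrogGW over Trog and 3 and 0 in TGFb over FB. Leaving out UK replicate 5 gave 5 and 3 in UK over TGFb, 3 and 5 in TrogGW over Trog and 4 and 3 in TGFb over FB. The medians with all libraries were 0.13, 0.45, -0.01, 0.17, -0.25 and 0.33, and with totals alone Trog over TGFb turned to 0.67, UK over Trog to -0.30 and TGFb over FB to -0.05. That scaling gave calls of 3 and 2, 6 and 2, 6 and 1, 2 and 4, 2 and 2 and 2 and 3 in the same order. Without UK replicate 5 the medians were 0.33 in UK over TGFb and 0.04 in UK over Trog. With all libraries, the 2 and 2 calls in UK over TGFb were near the shares of all tested genes, 28% and 22.5%. So were those in Trog over TGFb (32.9% and 29.7%) and UK over Trog (32.9% and 28.2%). HIF1A, the oxygen-regulated factor that also pairs with ARNT, rose in UK to 2089 ± 299 CPM and fell in TrogGW to 322 ± 28.0 CPM and in Trog to 724 ± 41.4 CPM, against 1355 ± 28.5 CPM in TGFb. Those changes were 0.62 ± 0.0871, -2.07 ± 0.0902 and -0.90 ± 0.0874, each with no overlap with TGFb. EPAS1, the second hypoxia factor, rose in Trog over TGFb (2.04 ± 0.24) and fell in UK over Trog (-2.09 ± 0.24).

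The genes whose patterns were most like each member were found by Pearson's r of log2 CPM over the 25 libraries, among the 9790 other tested genes that averaged 1 CPM or more. The libraries share their groups and UK replicate 5, so r is a description. XPO1 (0.949), ANPEP (0.938) and FANCD2 (0.918) were nearest to CYP1A1. Nearest to ALDH3A1 were PPL (0.949), SCAMP5 (0.932) and RERG (0.919). GLI3 (0.977), CRYBG1 (0.956) and THRA (0.954) came nearest to AHRR, and IL1R1 (0.948), DAB2 (0.938) and CAPN5 (0.909) to TIPARP. MDM2 (0.935), FBXL5 (0.925) and M6PR (0.921) came nearest to NFE2L2. Without UK replicate 5 XPO1 and ANPEP were still among the nearest 3 to CYP1A1, IL1R1 and DAB2 to TIPARP, and PPL and RERG to ALDH3A1. The nearest 3 to AHRR became WDFY4 (0.976), CLIP4 (0.974) and SLC43A1 (0.961), and those to NFE2L2 became IKBKB (0.952), ZC3H6 (0.951) and RNF216 (0.946).

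Among the members themselves, CYP1A1 and ALDH3A1 had an r of 0.889 over 25 libraries and 0.881 over 24. The r of CYP1A1 with TIPARP was 0.423 over 25 libraries and 0.879 over 24, and that of CYP1A1 with AHRR 0.116 and 0.623. AHRR and TIPARP had 0.798 and 0.646. NFE2L2 had its highest r with CYP1A1 over 25 libraries (0.582) and with TIPARP over 24 (0.594), and -0.23 with AHRR over 25.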

How the data were processed

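The authors deposited 1 table of raw read counts per library, with 13949 gene symbols and no header, and the same symbols in each. Per the labels' protocols, libraries were made with a stranded kit from polyadenylated RNA. The submitters' processing notes list Salmon 1.5.2, STAR 2.7.9a, featureCounts, Subread 2.0.1 and fastp 0.23.1. The strand setting, annotation and genome build are not given in the sources used here. Tables were assigned by the sample titles in the labels, and 13794 symbols were found in the RefSeq gene table of the cat, used for names and neighbours only.

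The counts were fitted with edgeR 4.0.16 (R 4.3.3), TMM scaling, the expression filter (minimum count 10, minimum total 15, leaving 10699 genes) and 1 mean per group over 25 libraries. CPM are counts over the TMM-scaled total. SE was obtained by dividing the size of a log2 fold change by the root of its F value. Other genes were tested with the quasi-likelihood F test, with Benjamini-Hochberg adjustment over all tested genes and a threshold of 0.05. The code was tested on simulated counts.

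The members, the 8 pathway lists (119 genes, 95 in the tables, 77 tested) and the marker lists were chosen with earlier results of these data known, and no list holds a member. Genes named were all tested genes of the receptor complex and AHR target lists, in other lists some of the 3 called higher and 3 called lower with the lowest adjusted p per comparison, and the 3 nearest in pattern. Genes of the lists missing from the tables, AHR among them, were not analysed here, and 1 further gene chosen for the receptor complex is not reported here and is left out of these counts. Alternatives were DESeq2 1.42.0, its size factors, library totals alone, other filters, a replicate block, each library left out and fits limited to the groups compared. The likeness over 24 libraries was added after seeing the data. Depth was 14.8 to 25.2 M counts. Figures were drawn with matplotlib 3.10.9.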

Additional observations from a re-analysis of the deposited data

Results flagged for a closer look

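In 25 sets of 5 libraries (5 genes in 5 groups), 3 held a library far from the others of its group by Dixon's criterion. Its critical value is one that chance meets in about 1 set in 20. The sets share libraries, UK replicate 5 was flagged for both AHRR and ALDH3A1, and the genes were chosen with their levels in view. The number flagged is therefore a description and cannot be compared with chance. AHRR in UK replicate 5 was low at 2.29 CPM, with the next UK library at 37.8 CPM. ALDH3A1 in the same library was high at 26.9 CPM, with the next at 8.81 CPM. CYP1A1 in Trog replicate 3 was high at 11.0 CPM, with the next Trog library at 6.15 CPM.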

How the results depend on the processing

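Of the settings run, scaling by library totals alone was the one that moved members' values by more than the spread between replicates. That spread is the larger SD of log2 CPM among the groups compared, over all their libraries. In UK it holds UK replicate 5, which widens it for AHRR, TIPARP and ALDH3A1 in every comparison with UK. It therefore cannot judge the settings that leave that library out. Leaving out UK replicate 5 moved ALDH3A1 in UK over TGFb further (4.76, against 5.45 with totals alone), and AHRR there to 1.10 (1.08 with totals alone). Totals alone reversed AHRR in TrogGW over TGFb (0.40), Trog over TGFb (0.28) and TrogGW over Trog (0.12). CYP1A1 became 4.57 in TrogGW over TGFb, 4.40 in Trog over TGFb and -4.33 in TGFb over FB. ALDH3A1 became 3.29 in TrogGW over TGFb and 1.43 in Trog over TGFb. TIPARP became 1.17 in TrogGW over TGFb, 1.00 in Trog over TGFb, 0.17 in TrogGW over Trog and -0.54 in TGFb over FB, where AHRR became -0.63. NFE2L2 became 0.67 in UK over TGFb, 1.02 in TrogGW over TGFb, 1.21 in Trog over TGFb, -0.54 in UK over Trog, -0.20 in TrogGW over Trog and -0.39 in TGFb over FB. Of the members' values under the alternatives, 940 moved by less than the spread between replicates, 16 moved by more and 3 reversed. Fits of only the groups compared, in which UK replicate 5 enters only where UK does, called 3210 genes in UK over TGFb (against 5408), 7312 in TrogGW over Trog (against 4620) and 7087 in TGFb over FB (against 4089). Of the pathway genes they called 31 in UK over TGFb (against 51), 38 in UK over Trog (against 58), 64 in TrogGW over Trog (against 38) and 53 in TGFb over FB (against 31). Leaving out 1 library at a time gave 4176 to 7735 called genes in TrogGW over Trog and 3657 to 7124 in TGFb over FB, and 35 to 67 and 29 to 51 pathway genes, with the highest value each time without UK replicate 5, whose spread enters the estimate shared by all groups. Same-numbered libraries deviated together at -0.187 to 0.328, so the numbers were not taken as pairs. With a replicate block, CYP1A1 in UK over TGFb was 8.24 and the called genes were 5129 in UK over TGFb, 7361 in TrogGW over TGFb, 6647 in Trog over TGFb, 6326 in UK over Trog, 4512 in TrogGW over Trog and 3981 in TGFb over FB. Depth limits CYP1A1 and ALDH3A1 in TGFb, at 6 to 12 and 2 to 7 counts a library. Settings other than library totals turned the sign of a member only where its change was smaller than its SE, in NFE2L2 for TGFb over FB and in CYP1A1 and TIPARP for TrogGW over Trog. Library totals alone leave out the TMM factors, which ran from 0.713 to 0.768 in TGFb, 1.188 to 1.212 in Trog and 1.285 to 1.378 in TrogGW. The members moved in the same direction as the median of all tested genes, so these shifts are those of the scaling and not particular to a member. What made the factors differ between groups was not tested.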
